A study of Arabidopsis thaliana with 9 samples.

Results

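Gabaculine (GAB) is a toxin that inactivates glutamate-1-semialdehyde aminotransferase, the enzyme that forms 5-aminolevulinic acid (ALA), and the transcripts of GAB-treated wild-type seedlings were compared here with those of untreated ones. The members were 6 of the 9 arrays of the series, 3 labelled Col-0 gabaculin treated and 3 labelled wild type Col-0, and every probe set of the Affymetrix ATH1 array apart from the spike-in and other control sets, which left 22746 of 22810. Both groups are Arabidopsis thaliana of the accession Col-0, and the untreated seedlings received no agent. The treated seedlings grew on medium with 10 µM GAB. All seedlings were 3 days old and etiolated when the light was switched on, and RNA was taken 6 h later. The remaining 3 arrays hold gun4-1, a mutant in the same background with the same growth regime and no agent, whose affected protein, GUN4, stimulates Mg chelatase. These are used below only to set levels beside those of GAB-treated seedlings. RNA came from whole seedlings, so a change in the share of a tissue and a change in transcripts per cell cannot be told apart, and 1 dose and 1 time point do not show when a change began.

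ALA is the first precursor committed to tetrapyrroles, and plants make it in plastids from glutamate bound to tRNA. From ALA the pathway leads to protoporphyrin, where an Mg branch goes on to chlorophyll and an Fe branch to haem and the phytochrome chromophore. Chlorophyll formation in flowering plants waits for light, since protochlorophyllide oxidoreductase is a light-dependent enzyme, and seedlings brought from darkness into light therefore draw heavily on ALA. Several intermediates of the pathway are phototoxic, and plastids in different states of tetrapyrrole synthesis are known to alter the expression of nuclear genes.

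Each value is a log2 signal that the authors normalized by robust multi-array average. A probe set was called higher or lower with GAB when its Benjamini-Yekutieli adjusted p in limma was at most 0.05 and its fold change was above 1.5 or below 0.667. The medians of the 6 arrays lay between 6.49 and 6.57, arrays of a group had a Pearson r between 0.996 and 0.997 across probe sets, and the median SD over 3 arrays was 0.0969 in Col-0 and 0.0950 with GAB. The study's general note on statistics says that experiments were performed independently. Whether replicate arrays stem from different cultures is left unsaid there, and if they share one, p-values reflect the spread among the arrays alone. The annotation used gives exactly 1 gene to 13513 probe sets, and 8730 have no name here. Marker lists of other tissues were small, and none of their members was called: 3 probe sets of seed storage and oil mobilisation, 3 of roots, 5 of green tissue, 4 of meristem and guard cells and 2 of pollen and flower. The green-tissue transcript RCA, for Rubisco activase, was high on all 6 arrays, at 14.32, 14.26 and 14.23 in Col-0 and 14.39, 14.37 and 14.32 with GAB. RCA was the only one of the 5 green-tissue probe sets above 0, at a log2 fold change of 0.09. The other 4 lay below 0, the lowest of them LHCB4.2 at -0.11.

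Few probe sets were called between GAB-treated and untreated seedlings, and the largest changes were increases. Of the 22746 probe sets, 332 were called, which is 1.46%. These were 175 higher with GAB (0.769%) and 157 lower (0.690%), so that 47.3% of the calls were decreases. With each array centred on its own median the split was 202 higher and 119 lower, or 37.1% decreases. The median fold change was 1.77 among the higher and 0.597 among the lower probe sets. Increases reached further, as 65 probe sets rose more than 2-fold and 16 more than 3-fold, against 32 and 4 that fell by as much. When 1 array was left out, 100 to 138 probe sets were higher and 79 to 139 lower, the fewest without GAB replicate 2 for increases and without Col-0 replicate 2 for decreases. A further 86 probe sets passed the adjusted p alone and stayed within the fold limits, 36 above 0 and 50 below. Another 210 passed the fold limits and not the adjusted p. Without adjustment 4480 probe sets had a limma p of at most 0.05, so the number of calls does not measure how far the response extends.

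**Figure D1:**
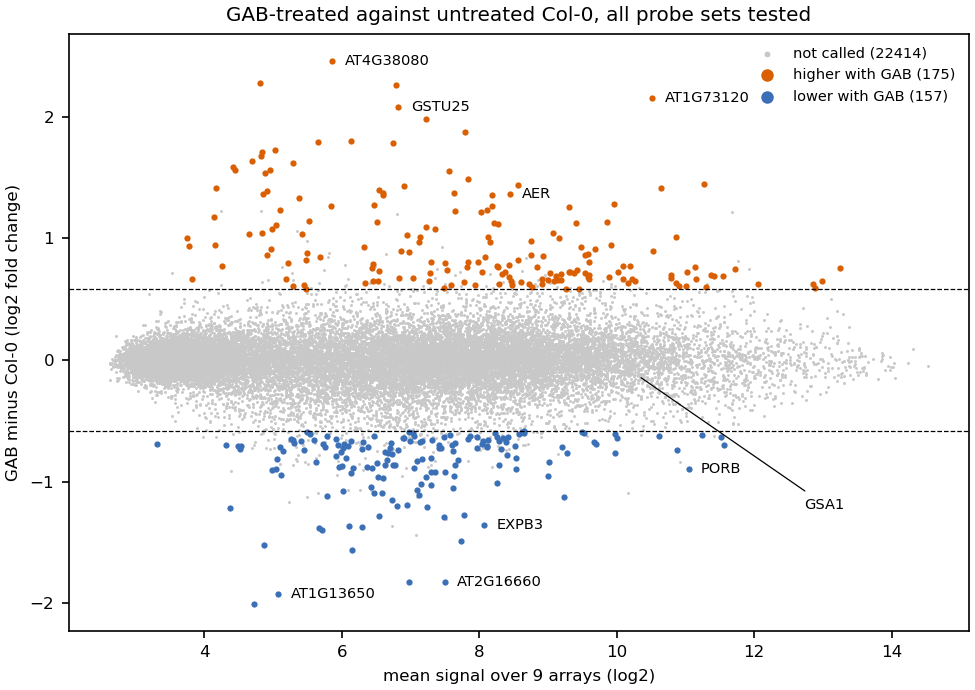
Log2 fold change of GAB-treated against untreated Col-0 (vertical axis) by mean log2 signal over 9 arrays (horizontal axis) for all probe sets tested. Orange points are the 175 higher and blue points the 157 lower with GAB, dashed lines mark the fold limits of 1.5 and 0.667, and GSA1, the target of the inhibitor, lies among the probe sets that were not called.

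Calls were spread unevenly over signal strength. Among the dimmest 25% of probe sets, with a mean log2 signal up to 4.17, 6 were higher and 1 was lower. The brightest 25%, from 8.24 upwards, held 82 higher (1.44%) and 34 lower (0.598%). The group next to it, from 6.5 to 8.24, held 46 higher and 68 lower, so that increases outnumbered decreases at the bright end and not in the middle range. Of the called probe sets, 79 higher and 81 lower ones name a single gene, and 93 and 74 are unnamed here. The largest changes of unnamed probe sets were a rise of 2.26 on the log2 scale in one (Col-0 5.56, 6.6 and 6.37, GAB 8.6, 8.09 and 8.64) and a fall in another by 2.01 (Col-0 6.33, 5.91 and 5.85, GAB 4.21, 4.11 and 3.76).

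The transcript of the inhibited enzyme itself was not called. GSA1, glutamate-1-semialdehyde aminotransferase, had log2 signals of 10.34, 10.41 and 10.39 in Col-0 and 10.27, 10.36 and 10.13 with GAB. The groups overlapped, and the log2 fold change of -0.13 had a 95% confidence interval of -0.32 to 0.07 (adjusted p = 1). GAB is known to act on other aminotransferases that use pyridoxal phosphate. The aminotransferase list held 3 probe sets for its 42 genes, GSA1 among them, and none was called. Their log2 fold changes ran from -0.13 in GSA1 to 0.21 in BCAT4, an aminotransferase of methionine chain elongation. Whether GAB acts on BCAT4 was not tested.

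The genes measured under a symbol that make ALA and convert it to porphyrins showed no call in either direction. The list held 8 probe sets for its 24 genes, with a median log2 fold change of 0.04, beside 0 over all probe sets tested. The extremes were HEME1 at -0.17 and HEMA2, a glutamyl-tRNA reductase that feeds the ALA pathway, at 0.31. The brightest members were HEMB1, an ALA dehydratase, at 0.10 with a 95% interval of -0.10 to 0.30, and HEME2, a uroporphyrinogen decarboxylase, at -0.15 (-0.35 to 0.06). A missed threshold does not show equal levels, and the intervals bound what could have been missed.

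One gene of the chlorophyll branch was called. PORB, the light-dependent protochlorophyllide oxidoreductase B, had log2 signals of 11.56, 11.45 and 11.42 in Col-0 and 10.82, 10.35 and 10.56 with GAB, with no overlap. It fell by 0.90 on the log2 scale (standard error 0.12, adjusted p = 0.0108), to 0.536 of its untreated level. This call depended on single arrays. Without Col-0 replicate 1 or 2, or GAB replicate 2 or 3, the adjusted p lay between 0.0562 and 0.0717, and the fold change between 0.531 and 0.580. The gun4-1 arrays read 11.14, 10.89 and 11.23, between the other groups, and the direct contrast of gun4-1 with GAB was 0.51 (adjusted p = 0.161). The other 3 probe sets of this branch were not called, and the list's median was -0.04.

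The photosynthetic transcripts measured under a symbol held no call. The list of light-harvesting and photosystem proteins has 48 genes, and 8 probe sets stand for them here. None of these 8 was called, and their log2 fold changes lay between -0.11 and 0.19 with a median of -0.05. LHCB4.1, which encodes a minor antenna protein of photosystem II, was at 13.71, 13.71 and 13.69 in Col-0 and 13.64, 13.59 and 13.58 with GAB, a difference of -0.10 (95% interval -0.26 to 0.05). Of 69 probe sets of plastid-encoded genes, a list added after the values were seen, none was called and the median was 0.01. They ranged from psbA at -0.36 to ycf3 at 0.70. Some were near background, such as ndhF at a mean of 3.08 and rpoB at 3.22 in Col-0, where few probe sets of the array were called. Among 23 probe sets of mitochondrion-encoded genes, also added afterwards, some were dim too, such as nad6 at a mean of 3.70 in Col-0. Their median was 0.08, and 18 of the 23 lay above 0, beside 11374 of 22746 over the array. Called was 1 of them, or 4.35%, beside 0.769% higher over the array. This was cox2, a subunit of cytochrome c oxidase, which rose by 1.03 from 4.93, 4.78 and 4.52 to 5.85, 5.62 and 5.86 (adjusted p = 0.0041). Its gun4-1 arrays read 5.67, 5.67 and 5.95, and the direct contrast with GAB was not called. How well the RNA labelling kit of the study captures plastid and mitochondrial transcripts was not tested, so these values may not track organelle RNA levels.

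Both of the largest increases with a named gene started from low signals in untreated seedlings. AT4G38080 had log2 signals of 5.08, 5.69 and 5.45 in Col-0 and 8.11, 7.37 and 8.13 with GAB. It rose by 2.46 (standard error 0.21, adjusted p = 0.000502), which is 5.51-fold. AT2G23540 went from 4.0, 4.14 and 4.19 to 6.24, 5.8 and 7.12. This 4.85-fold rise (log2 2.28, standard error 0.24) came with unequal GAB arrays, of which replicate 3 was the highest. AT1G73120 differed from these in being bright already without treatment, at 9.6, 9.74 and 9.96, and reached 11.83, 11.99 and 11.94. Its log2 fold change of 2.15 had a standard error of only 0.10 and the adjusted p was 7.7e-06.

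The remaining genes among the 15 largest increases lay between 1.44 and 2.09 on the log2 scale. AT1G22890, a gene of unknown function, rose from 4.83, 4.6 and 4.61 to 6.4, 6.42 and 6.61 (3.48-fold). By the study's quantitative PCR its transcript was instead significantly lower with GAB at the same 6 h, and significantly higher at a later time. AT5G09570 rose 3.46-fold and AT5G09480 3.31-fold. AT2G41730 rose 3.45-fold on a probe set that the manufacturer marks as open to cross-hybridisation. AT2G41380 went from 4.21, 4.18 and 4.37 to 5.86, 5.88 and 6.15, with tight groups. AT2G04050 rose 3.08-fold, AT5G12420 2.95-fold and AT1G74460 2.91-fold. AT5G43450, annotated as a putative 2-oxoglutarate-dependent dioxygenase, rose 2.80-fold. AT3G20340, annotated as lowered under photo-oxidative stress, moved from 7.77, 7.58 and 7.99 to 9.27, 9.14 and 9.26, a rise of 1.44 with adjusted p = 0.000247. All 15 separated the groups, which their choice as the largest called changes on these arrays makes likely. Of them, 12 were called in each of the 6 fits that left 1 array out. AT5G09480 was lost without Col-0 replicate 1 or 2 (adjusted p between 0.101 and 0.127), AT5G12420 without any Col-0 replicate or GAB replicate 2 (0.0906 to 0.203), and AT1G74460 without any Col-0 replicate or GAB replicate 1 (0.0533 to 0.0682). For AT5G12420 the GAB arrays read 4.91, 5.2 and 6.2, with replicate 3 well above the other two.

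Enzymes that conjugate or reduce reactive and foreign compounds were among the named increases, while most of their relatives were not called. Glutathione transferases of the tau class attach glutathione to electrophilic molecules. GSTU25 had log2 signals of 6.35, 6.68 and 5.74 in Col-0 and 8.41, 8.53 and 8.09 with GAB. It rose 4.24-fold (log2 2.09, standard error 0.19, adjusted p = 0.000817), and every GAB array was above every Col-0 array although the Col-0 arrays themselves spread widely. GSTU16 rose by 0.62, from 7.77, 7.84 and 8.01 to 8.49, 8.45 and 8.55 (adjusted p = 0.00867). Its call was lost without Col-0 replicate 1 or 2 or GAB replicate 3, where the adjusted p was 0.0487 to 0.0653 and the fold change 1.49 to 1.52. Of 13 probe sets for glutathione transferases 2 were higher and none was lower, beside 0.769% higher over the array. The median of the list was -0.03, and 8 of the 13 lay below 0. GSTU23 had the lowest value, -0.57 (adjusted p = 0.392), and GSTL3, a bright member that was not called, stood at 0.27 (95% interval 0.05 to 0.48).

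UDP-glycosyltransferases (UGTs) transfer sugars to hormones, phenolics and foreign molecules. Of 47 probe sets, 3 were higher and 1 was lower, which is 8.51% beside 1.46% over the array, and the median was 0.05. UGT73C1, which can glucosylate cytokinins, moved from 4.32, 4.03 and 4.17 to 5.84, 5.97 and 5.74, a rise of 1.68 (standard error 0.13, adjusted p = 0.000243). UGT84A3, which forms glucose esters of hydroxycinnamic acids, had 4.89, 5.04 and 5.28 in Col-0 and 6.05, 6.11 and 5.69 with GAB (1.84-fold). Without Col-0 replicate 1 or 2 or GAB replicate 1 or 2 it missed the threshold (adjusted p between 0.0660 and 0.0996). UGT76E2 rose 1.53-fold and slipped under the fold limit without Col-0 replicate 3 or GAB replicate 1 (1.48 and 1.495). In the other direction UGT78D1, a flavonol rhamnosyltransferase, fell by 0.71, from 8.97, 8.86 and 8.85 to 8.2, 8.14 and 8.21 (adjusted p = 0.0024). UGT74D1, a glycosyltransferase of auxins, passed the adjusted p (0.0211) and not the fold limit at 1.44. UGT73B1, named after its value was seen, had the opposite outcome at 1.79-fold with adjusted p = 0.0559, and was called without Col-0 replicate 1 (adjusted p = 0.0164). IAGLU, an indole-3-acetate glucosyltransferase that carries no UGT symbol, was also called (1.64-fold). Its call was kept without Col-0 replicate 3 and lost without any of the other 5 arrays (adjusted p 0.107 to 0.195). AT4G15260, annotated as a glucuronosyl or glucosyl transferase, went from 6.5, 6.46 and 6.38 to 7.33, 7.58 and 7.47 (2.01-fold). The study's quantitative PCR found no significant difference for AT4G15260 with GAB.

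Reactive carbonyls are removed by reductases and dehydrogenases. AER, a 2-alkenal reductase that acts on lipid-derived aldehydes, had log2 signals of 7.73, 7.67 and 7.73 in Col-0 and 9.13, 9.2 and 8.89 with GAB. The rise was 1.36 (standard error 0.09, adjusted p = 7.1e-05). The adjacent gene on chromosome 5, AT5G16980, annotated as a putative NADP-dependent oxidoreductase, rose by 1.38, from 6.04, 5.95 and 5.78 to 7.3, 7.61 and 6.98. These have separate probe sets, and how far transcripts of one reach the probes of the other was not tested. AER was 1 of 10 probe sets for carbonyl and oxylipin reductases and the only one called in the main comparison. That is 10.0%, beside 0.769% higher over the array, and the list's median was 0.08. ALDH6B2, named after its value was seen, passed the adjusted p (0.0397) and not the fold limit at 1.47, with 10.82, 10.85 and 10.67 in Col-0 and 11.32, 11.36 and 11.32 with GAB. With each array centred on its median it was called as well, so that 2 of the 10 were. ALDH11A3, a glyceraldehyde-3-phosphate dehydrogenase of the aldehyde dehydrogenase family, stood at 0.24 (95% interval 0.09 to 0.39). AT2G29340, of the short-chain dehydrogenases, rose 2.18-fold, with no significant difference in the study's quantitative PCR.

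Other lists linked to detoxification and stress held no further call. None of 23 cytochromes P450 with a symbol was called, with a range of -0.38 to 0.13. These are a small part of the 236 such genes. The study lists CYP81D1 as higher and CYP96A12 as lower with GAB on these same arrays, and neither is among the 23. None of 5 antioxidant enzymes, 9 thioredoxins and glutaredoxins, 13 defence and salicylate genes or 4 genes of iron homeostasis passed. Those lists hold 41, 31, 220 and 48 genes in all. Most members had no probe set with a symbol here, and the counts do not speak for them. Of 6 genes that respond to reactive oxygen the only one called was GSTU25, which the list of glutathione transferases also holds. That is 16.7%, beside 0.769% higher over the array. The median of those 6 was 0.22.

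**Figure D2:**
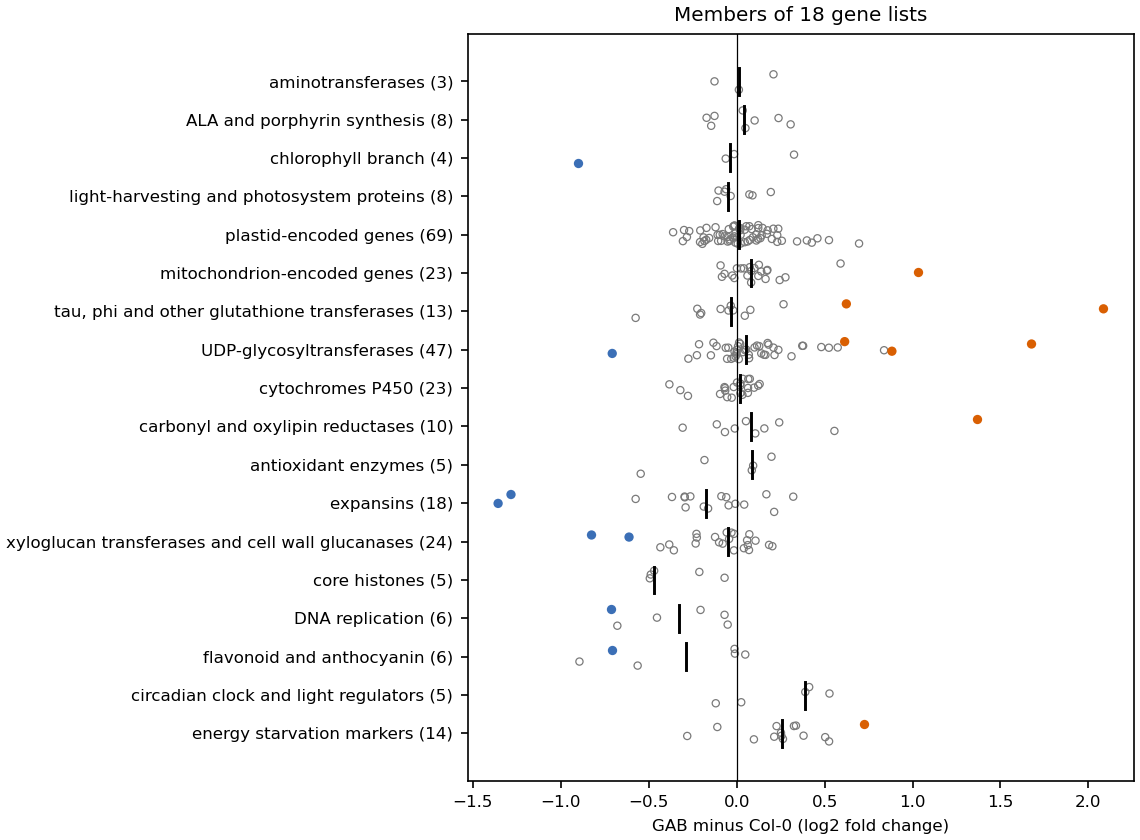
Log2 fold change of GAB-treated against untreated Col-0 (horizontal axis) for each probe set of 18 gene lists, with the number of probe sets in brackets and a black bar at the median. Filled points were called (orange higher, blue lower) and open points were not, and most lists hold 0 to 2 called members around a median near 0.

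Expansins loosen cell walls during growth, and 2 beta-expansins fell with GAB. EXPB3 had log2 signals of 9.42, 9.46 and 9.19 in Col-0 and 8.44, 7.83 and 7.73 with GAB, and fell by 1.36 (standard error 0.15, adjusted p = 0.00338). EXPB1 went from 7.83, 7.84 and 7.71 to 6.62, 6.32 and 6.6, a fall of 1.28 (standard error 0.11, adjusted p = 0.000406). Both calls were kept in each fit without 1 array. Of 18 expansin probe sets these 2 were called (11.1%, beside 0.690% lower over the array), none was higher, and 14 lay below 0 with a median of -0.17. Over all probe sets 11371 of 22746 lay below 0. EXPA8, a bright alpha-expansin, stood at -0.26 (95% interval -0.43 to -0.10).

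Glucanases of glycosyl hydrolase family 9 cut cellulose and related glucans. GH9B8 had 7.92, 8.1 and 7.86 in Col-0 and 7.46, 6.97 and 6.97 with GAB (0.564 of the untreated level, adjusted p = 0.0406). GH9C2 went from 9.4, 9.56 and 9.23 to 8.93, 8.7 and 8.71 (0.654, adjusted p = 0.0384). Both calls were fragile. GH9B8 was called without GAB replicate 1 and lost without any of the other 5 arrays (adjusted p 0.125 to 0.264), and GH9C2 was called without Col-0 replicate 3 and lost without any other (0.0549 to 0.237). They were 2 of 24 probe sets for xyloglucan transferases and wall glucanases, or 8.33% beside 0.690% lower over the array, and the list's median was -0.05. XTH32, a bright xyloglucan transferase, stood at -0.38 (adjusted p = 0.71). None of 7 cellulose synthase and related probe sets was called.

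The largest decrease with a named gene was that of AT1G13650, of unknown function. It had log2 signals of 5.94, 6.03 and 6.47 in Col-0 and 4.44, 4.11 and 4.09 with GAB, and fell by 1.93 (standard error 0.14, adjusted p = 0.000149). AT2G16660 went from 8.07, 8.48 and 7.87 to 6.37, 6.34 and 6.24, with GAB arrays within a narrow band. AT4G34950 fell by 1.49, from 8.46, 8.44 and 8.31 to 7.23, 6.93 and 6.59. AT3G26960 and AT3G59670, both of unknown function, were at 0.387 and 0.463 of the untreated level.

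The other large decreases are given with the study's annotation. AT5G55450, a protease inhibitor, moved from 6.98, 6.41 and 7.0 to 5.09, 5.52 and 5.56 (0.379 of the untreated level). AT5G45650, a subtilase, went from 8.34, 8.66 and 8.26 to 7.28, 7.15 and 6.96 (0.409). AT3G61820, an aspartyl protease, fell to 0.414, and AT3G47380, an inhibitor of invertase or pectin methylesterase, to 0.435. AT5G05960, from the family of protease inhibitors and lipid transfer proteins, fell to 0.467, and its call was lost without Col-0 replicate 2 or 3 or GAB replicate 1 or 2 (adjusted p 0.0722 to 0.131). AT4G38950, a kinesin, was at 0.474 and lost its call without Col-0 replicate 2 or GAB replicate 2 (0.0540 to 0.0594). AT3G05600, a putative epoxide hydrolase, and AT1G66940, related to protein kinases, were at 0.482 and 0.492. All 15 of the largest decreases separated the groups, which their choice again makes likely, and 13 were called in each of the 6 fits without 1 array. Annotations of these loci come from the study, which listed many of them for their response on these same arrays, so their being called is no independent evidence. The study tested some of the 15 by quantitative PCR. With GAB at 6 h only AT3G26960 was significantly lower, while EXPB3, AT5G45650, AT3G61820, AT4G38950, AT3G05600 and AT1G66940 did not differ significantly. At a later time all of these except AT5G45650 were significantly lower.

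The few probe sets measured for DNA replication and core histones lay below 0, and 1 was called. PRL encodes MCM7, part of the hexameric ring that unwinds DNA at replication forks. It had 8.63, 8.53 and 8.64 in Col-0 and 7.94, 7.89 and 7.82 with GAB, and fell by 0.71 (standard error 0.10, adjusted p = 0.0111). Without GAB replicate 1 it was called, and without any of the other 5 arrays it missed the threshold, with adjusted p from just above 0.05 to 0.0757. POLA3, a primase subunit of DNA polymerase alpha, stood at -0.68 and did not pass (adjusted p = 0.0834), although its groups, 7.52, 7.25 and 7.51 and 6.66, 6.87 and 6.71, did not overlap. The replication list holds 50 genes, of which 6 were measured under a symbol, and 1 of these was called, beside 0.690% lower over the array. All 6 probe sets were below 0, with a median of -0.33, beside 11371 of 22746 below 0 over the array. All 5 core histone probe sets with a symbol were below 0 too, with a median of -0.47 and a lowest value of -0.49 in HTB1, and none was called. Histones known only by a locus number are not in this list. None of 4 cyclin and mitotic kinase probe sets was called. NRPA1, the largest subunit of RNA polymerase I, which transcribes ribosomal RNA, fell by 0.87 from 7.03, 7.25 and 7.17 to 6.48, 6.14 and 6.23 (adjusted p = 0.0032).

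Of 6 flavonoid and anthocyanin genes, 5 lay below 0 with a median of -0.29, beside 11371 of 22746 below 0 over the array. UGT78D1, described above, was the only one called, which is 16.7% beside 0.690% lower over the array. DFR, dihydroflavonol reductase of the anthocyanin pathway, had 5.99, 6.05 and 5.4 in Col-0 and 5.26, 4.78 and 4.71 with GAB. Its value of -0.89 did not pass (adjusted p = 0.12), and Col-0 replicate 3 was the closest of its group to the GAB arrays. Without that array it was called (adjusted p = 0.0374). UF3GT, a glycosyltransferase of anthocyanins, stood at -0.56 (adjusted p = 1) with overlapping groups. Both were named after their values were seen.

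Lists of light signalling and energy starvation, with 62 and 46 genes in all, held 1 call between them. Of 5 clock and light regulators none was called, with a median of 0.39, and HYH, a bZIP factor of light signalling, was at 0.53 (adjusted p = 0.134). Of 14 markers of energy starvation 12 lay above 0 and the median was 0.26, beside 11374 of 22746 above 0 over the array. MCCA, which degrades leucine, moved from 10.57, 10.57 and 10.68 to 11.1, 11.12 and 11.1 and passed the adjusted p (0.0139), not the fold limit (1.42). The only member called (7.14%, beside 0.769% higher over the array) was EXO, which is known for promoting cell expansion in response to brassinosteroids. EXO rose from 10.19, 10.24 and 10.3 to 10.83, 11.08 and 10.98 (1.65-fold, adjusted p = 0.00569). ICL, isocitrate lyase of the glyoxylate cycle in oil-storing seedlings, was at 0.75 (adjusted p = 0.0787), with 11.16, 11.4 and 10.91 in Col-0 and 11.66, 12.01 and 12.04 with GAB. The seed storage protein gene PAP85 varied within both groups, at 9.18, 9.6 and 7.98 in Col-0 and 8.96, 7.63 and 8.41 with GAB.

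**Figure D3:**
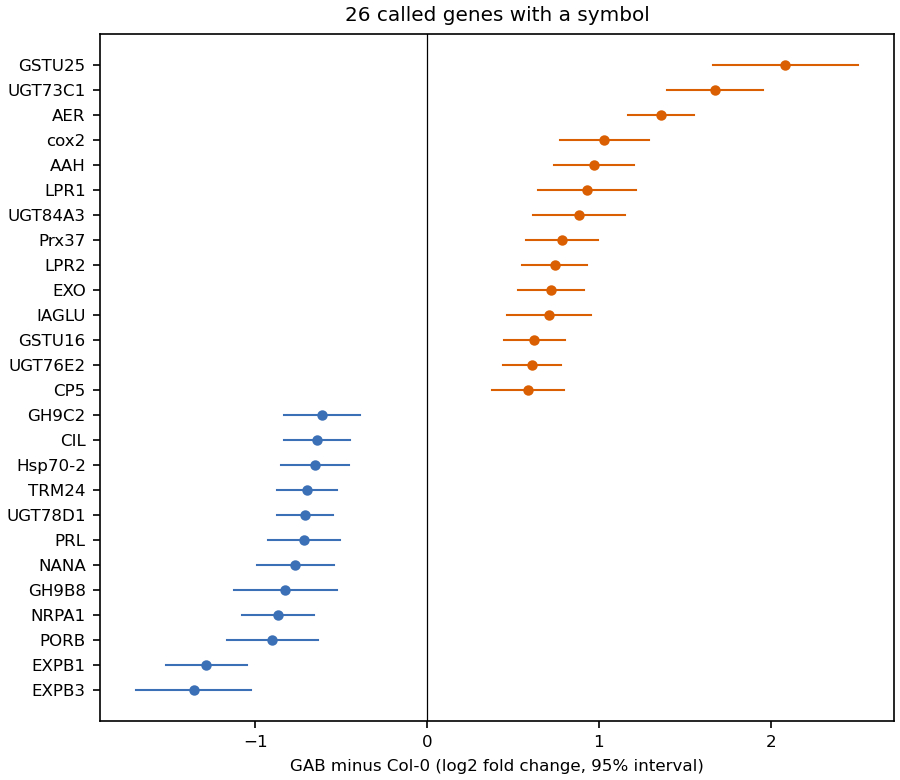
Log2 fold change of GAB-treated against untreated Col-0 with its 95% confidence interval (horizontal axis) for the 26 called genes that carry a symbol, 14 higher (orange) and 12 lower (blue). GSTU25 at 2.09 and EXPB3 at -1.36 mark the ends.

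In all, 26 called genes carry a symbol, 14 higher and 12 lower. The 11 that no rule above names are given in full, so that none was picked for its value. AAH, allantoate amidohydrolase, which recovers nitrogen from purines, rose from 7.85, 8.05 and 7.79 to 8.87, 9.01 and 8.72 (1.96-fold, adjusted p = 0.00314). LPR1 and LPR2, paralogous multicopper oxidases of the root response to low phosphate, both rose, LPR1 from 5.52, 5.97 and 5.78 to 6.62, 6.92 and 6.53 and LPR2 from 7.21, 7.27 and 7.18 to 8.11, 7.94 and 7.85. LPR2 was called in each fit without 1 array, and LPR1 was lost without Col-0 replicate 1 or 3 or GAB replicate 1 or 2 (adjusted p 0.0525 to 0.0753). Prx37, a class III peroxidase, rose 1.73-fold, from 6.28, 6.31 and 6.24 to 6.97, 6.95 and 7.27. CP5 rose 1.504-fold, at the fold limit, and was called in none of the 6 fits without 1 array (adjusted p 0.109 to 0.216). IAGLU, given above, is the remaining increase of these 11.

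Of the decreases, TRM24, which carries a TON1-recruiting motif, fell by 0.70, and NRPA1 is given above. Both were called in each fit without 1 array. Hsp70-2, a chaperone, fell by 0.65, and its call was lost without any Col-0 replicate or GAB replicate 2 (adjusted p 0.0639 to 0.0846). CIL fell by 0.64 and was called without Col-0 replicate 3 and in no other such fit (0.0542 to 0.0793). NANA fell by 0.76, from 9.44, 9.7 and 9.63 to 8.9, 8.76 and 8.81, and was lost without Col-0 replicate 2 or 3 or GAB replicate 2 or 3 (0.0600 to 0.0871).

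Lists of hormone responses held no call. None of 15 auxin response, 9 abscisic acid and dehydration or 4 jasmonate and wounding probe sets was called, and neither was any of 10 autophagy genes or 17 transporters of amino acids and sugars. Those lists hold 121, 84, 37, 33 and 110 genes in all, and the counts do not speak for members without a symbol here. Of further called loci that the study annotates or lists, AT3G22060, related to receptor kinases, rose 2.64-fold, AT3G20270, a lipid-binding glycoprotein, 2.43-fold, and AT3G15760, of unknown function, 1.97-fold. AT3G15760 moved from 8.12, 8.1 and 8.09 to 9.07, 9.12 and 9.07, with very small spread, and was significantly higher in the study's quantitative PCR too. AT3G20270 lost its call without Col-0 replicate 1 or 2 or GAB replicate 2 (adjusted p 0.0551 to 0.0871).

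Neighbours of called genes were called about as often as other genes. Among named nuclear genes within 3 places of a called gene in the RefSeq order, 6 of 455 were called, or 1.32%, beside 158 of 12224, or 1.29%, over all named nuclear genes. They formed 3 pairs, AER with AT5G16980, AT3G62930 with AT3G62950 (log2 fold changes 0.73 and 0.91) and AT5G45650 with AT5G45670 (-1.29 and -0.60), and the members of each pair moved the same way.

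The gun4-1 arrays were also set directly against those of GAB-treated seedlings. In the direct contrast of gun4-1 with GAB, 864 probe sets were called (3.80%). Of the 175 higher with GAB, 58 were lower in gun4-1 than with GAB, 17 were higher and 100 were not called. Of the 157 lower with GAB, 22 were lower still in gun4-1, 13 were higher and 122 were not called. The GAB arrays that chose these probe sets also enter the direct contrast, which favours values that move back towards Col-0, so the counts are a description.

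Of the 15 largest increases, 12 were lower in gun4-1 than with GAB. GSTU25 was at 5.77, 5.98 and 5.84 in gun4-1, within the range of Col-0, and the direct contrast was -2.48 (adjusted p = 9.1e-05). AT1G73120 was at 9.89, 9.77 and 9.95 (-2.05, adjusted p = 1.9e-06), AT2G41380 at 4.2, 4.48 and 4.26 and UGT73C1 at 4.2, 4.74 and 4.42 (-1.40, adjusted p = 0.000272). AT4G38080 was below all Col-0 arrays, at 4.62, 4.21 and 4.09. AAH at 7.72, 7.85 and 7.54 (-1.16, adjusted p = 0.000293) and Prx37 at 5.92, 6.08 and 6.05 (-1.05, adjusted p = 0.000272) were other genes whose level was lower in gun4-1 than with GAB. The exception among the 15 was AT1G22890, which was higher in gun4-1 than with GAB, at 7.14, 7.18 and 7.42 (0.77, adjusted p = 0.00384). AT5G43450 and AT3G20340 were not called in the direct contrast.

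Among the decreases AT2G16660 set GAB apart. Its gun4-1 arrays read 8.26, 7.91 and 7.95, within the range of Col-0, and the direct contrast was 1.72 (adjusted p = 0.000131). AT4G34950 was at 7.91, 7.7 and 8.06, between the other groups (0.97, adjusted p = 0.00801). The cell wall genes went the other way, with lower levels in gun4-1 than with GAB. EXPB3 was at 6.88, 6.78 and 6.86 (-1.16, adjusted p = 0.00384), EXPB1 at 5.12, 5.45 and 5.38 (-1.19, adjusted p = 0.00024) and GH9B8 at 4.71, 5.09 and 4.9 (-2.23, adjusted p = 1.3e-05). AT3G61820, AT5G45650 and AT3G26960 were not called in the direct contrast, at -0.26, -0.23 and -0.37.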

How the data were processed

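Whole seedlings of Arabidopsis thaliana Col-0, with and without 10 µM GAB, and of gun4-1 were measured on 9 ATH1 arrays, 3 per group as assigned by the labels. Each deposited value is a normalized log2 signal for 1 probe set, obtained by the authors with robust multi-array average. Affymetrix Expression Console is the tool in the submitters' processing notes, and its version is not given in the sources used here. Background correction and probe summary are therefore those of the authors. Exactly repeated values occur on the 6 arrays in 29.8% of probe sets tested and 7.53% of those called. A repeat within a group can lower its spread, but repeats between the groups are counted too, and the effect on p-values was not tested. The number of arrays limits the precision.

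The 3 groups were fitted once in limma 3.58.1 (R 4.3.3; 6 residual and 5.91 prior degrees of freedom), with the adjustment and fold limits of the study's methods, after 64 control probe sets were left out. A fold change is 2 to the power of the log2 difference, GAB minus Col-0. An exact permutation test of 3 arrays against 3 could not pass the threshold and was not run. Genes were named from the platform annotation updated through RefSeq (13436 of 13513 single names matched, 503 probe sets have several). Gene lists hold named symbols only. Most lists have more genes than probe sets with a symbol, so a list without a call does not speak for its other genes. Named were GSA1, the 15 largest changes per direction among called probe sets with 1 gene, up to 4 called members per list and direction, and up to 2 bright members per list that were not called. Not every such bright member is printed. Called genes with a symbol, loci annotated by the study, organelle-encoded genes and UGT73B1, DFR, UF3GT, GSTU23 and ALDH6B2 were chosen once values had been seen. The members and lists were chosen with earlier results of these data known. Of 100 probe sets changed 2-fold in simulated data 88 were recovered, and of 100 changed 3-fold 95, with 0 false calls. The simulated noise was normal and independent between arrays and probe sets, at the mean and spread of each probe set. Deviations that arrays share are not covered, so the simulation does not vouch for the real calls. Alternatives covered the adjustment, fold limit, arrays fitted, normalization, dim and shared probe sets, weights for arrays, the variance model, a block for replicate numbers and each array left out. Promoter sequences were not analysed here.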

Additional observations from a re-analysis of the deposited data

How the results depend on the processing

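The counts of 175 higher and 157 lower probe sets stayed within 1.5 times in a fit of only the 6 arrays compared (129 and 123), quantile normalization (176 and 143), arrays centred on their median (202 and 119), probe sets other than the dimmest 25% (174 and 160), only probe sets not marked as shared between genes (170 and 155), trend and robust variance (198 and 202) and array weights (196 and 189). With Benjamini-Hochberg adjustment they were 230 and 265, and with a 2-fold limit 65 and 32, which by construction is a part of the main calls. Leaving out 1 array gave 100 to 138 higher and 79 to 139 lower probe sets. Increases moved by more than 1.5 times when Col-0 replicate 1 (113), 2 (106) or 3 (107) or GAB replicate 1 (110) or 2 (100) was omitted, and decreases for Col-0 replicate 2 (79) or 3 (89) and GAB replicate 2 (81) or 3 (99). Of the calls, 79 higher and 64 lower ones were kept in all 6 of these fits. With the replicate number as a block there were 192 higher and 188 lower, and 314 of the 332 calls were kept in their direction. Deviations from the group means correlated at 0.265, 0.0238 and 0.152 between Col-0 and GAB arrays of replicates 1, 2 and 3. Between Col-0 and GAB arrays of unlike numbers the correlations ran from -0.2755 to 0.1142. Whether arrays of the same number share a batch or a pairing was not tested, and the labels do not say. Of 1247 values of the named genes under alternatives, 0 changed sign, 107 fell short of a limit that the main value passed and 17 passed one that it had missed. The median over all probe sets moved by at most 0.04 under any scaling. The search of promoters for motifs was not run. With 3 arrays per group and 8730 unnamed probe sets, a small list or a modest change may be missed, and signal near background limits the dimmest 25%.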
